A study of Mus musculus with 16 samples.

Results

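The cytosolic ribosomal proteins are the protein components of the small and large subunits of the cytoplasmic ribosome, and their genes were followed in mouse quadriceps on 2 diets, before and after 1 bout of running. Members were chosen by symbol alone, as Rpl or Rps symbols with a number and at most 1 letter after it (which leaves out Rpl36al), together with Rpsa, Rplp0, Rplp1 and Rplp2, without the S6 kinases (Rps6k) and without symbols that mark a pseudogene. The rule took 84 of the 23970 gene symbols. Of these, 81 had an average level of 0.5 FPKM or more and entered the tests. FPKM (fragments per kilobase of transcript and per unit of mapped fragments) is a level scaled for transcript length and library size, so that values can be set side by side between genes.

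Polyadenylated RNA of quadriceps was sequenced from 16 male C57BL/6NTac mice aged 16 weeks, in 4 groups of 4 separate mice. CON-pre and CON-post mice had eaten a control diet (10% of kcal from fat) for 10 weeks, and HFD-pre and HFD-post mice a high-fat diet (60% of kcal from fat) for the same time. The pre groups were taken in the basal state, and the post groups 3 h after maximal treadmill exercise. Per the Methods, exercised mice were accustomed to the treadmill and fasted for 3 h before the run, and the pre groups had the same acclimatisation and fasting period. After the run the post mice had water but no food. The Methods do not say whether the fast of the pre groups covered these hours as well. If it did not, the run and the longer time without food cannot be told apart. All muscles were collected under isoflurane anaesthesia. Each sample was a piece of whole muscle, so that fewer cells of a type and less RNA per cell cannot be told apart.

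Each ribosome carries a single copy of most of these proteins, so that a growing cell has to make them in matched amounts. Their mRNAs usually begin with a terminal oligopyrimidine (TOP) tract, a C followed by a run of C and T, through which the kinase mTORC1 controls how well they are translated. In skeletal muscle, ribosome number is one determinant of the capacity for protein synthesis, and synthesis is known to be held back during running and to recover afterwards. Ribosomal protein genes are also a very frequent source of processed pseudogenes in mammalian genomes, and reads of a gene and of a near-identical copy cannot always be told apart.

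The highest mean over the 16 libraries was that of Rpl3l, a paralog of the large-subunit protein Rpl3 that is restricted to skeletal muscle and heart, at 237 ± 13.2 FPKM (SD, n = 16, 213 to 266). Other genes of high level were those of the large-subunit proteins Rpl4 at 202 ± 16.8, Rpl41 at 201 ± 23.7 and Rpl8 at 186 ± 21.3 FPKM. These 3 did not differ from each other beyond the spread between libraries. At the other end stood Rps12 at 0.833 ± 0.465, Rpl9 at 1.23 ± 0.558, Rps27 at 1.25 ± 0.787, Rps4l at 1.59 ± 0.550 and Rpl37 at 1.65 ± 0.755 FPKM. Rps12, Rpl9, Rps27 and Rpl37 are each part of the ribosome of every cell, and Rps4l is a paralog of Rps4x. In all, 16 genes lay at 50 FPKM or more, 47 between 5 and 50, and 21 under 5 FPKM. The 10 highest genes took 57.5% of the summed FPKM of the 84. The median of the 84 means was 13.4 FPKM, against 16.9 for 77 mitochondrial ribosomal protein genes and 4.51 for the 11256 genes tested.

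The 3 genes under the minimum were Rpl10l, Rpl26 and Rpl39l. Rpl10l, a paralog of Rpl10 known from testis, was listed at 0 in 16 libraries. Rpl26 had values of 0.000564 to 0.00112 FPKM, although its protein belongs to every large subunit. Rpl39l, a paralog of Rpl39, was listed at 0 in 4 libraries and reached 1.18 FPKM in HFD-post replicate 4. Rpl30, a large-subunit protein, was tested, but 3 of its libraries (CON-pre replicate 3, HFD-pre replicate 1 and CON-post replicate 3) were close to 0, the lowest at 0.000262 FPKM, while CON-pre replicate 2 reached 6.25 FPKM. A value at or near 0 for a gene that every cell uses, such as Rpl26 or Rpl30, can be a failed estimate.

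Level went with the presence of genomic copies. The coding sequences of 83 of the 84 genes (Rpl41 was not matched) were searched against the mouse genome for copies that cover at least 80% of the sequence outside the gene itself. A copy with at least 98% identity was found for 65 of the 83 (78.3%), against 7 of 76 mitochondrial ribosomal protein genes (9.21%), and a cytosolic gene had a median of 9 copies at 90% identity or more. Rpl21 had 80 such copies. The 65 genes with a near-identical copy had a median level of 10.8 FPKM, the 13 whose closest copy was at 90 to 98% had 55.1 FPKM, and the 5 without a copy at 90% (Rpl3l, Rpl8, Rps3 and Rpl39l among them) had 186 FPKM. Across the 83 genes the Spearman correlation between the identity of the closest copy and the mean level was -0.478, a description over genes that share libraries and aligner. Of the 18 genes under 5 FPKM in the first of these classes, 8 had a copy at 100% identity, Rps12, Rpl9 and Rps27 among them.

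**Figure D1:**
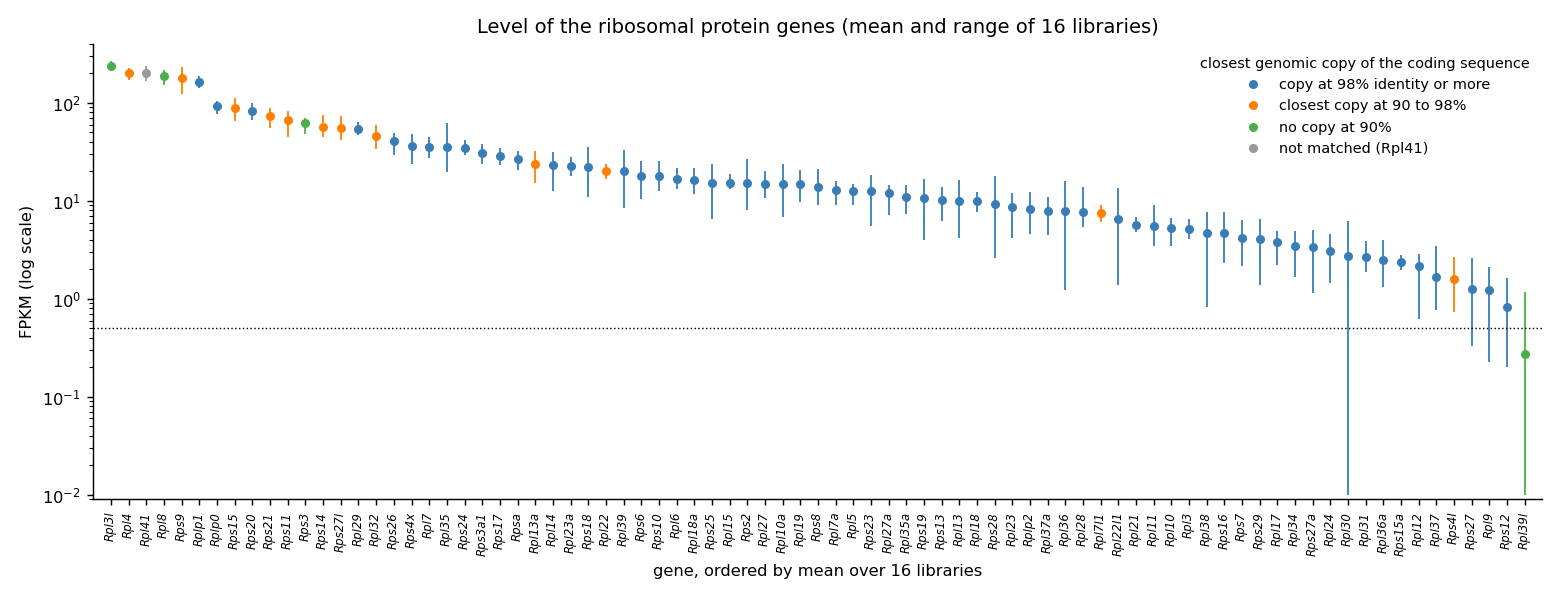
Mean FPKM over 16 libraries (points, log axis) and the lowest to highest library (vertical lines, drawn down to 0.01) for 81 ribosomal protein genes, coloured by the identity of the closest genomic copy; Rpl26 and Rpl10l lie under the axis and are not drawn, and 1 further gene is not shown. The dotted line is the minimum of 0.5 FPKM for testing; genes with a copy at 98% or more fill the lower part of the order, with a median of 10.8 FPKM.

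Some pseudogene symbols have entries of their own that exceeded the gene. Rpl14-ps1 had a mean of 148 FPKM against 23.5 for Rpl14, Rplp2-ps1 had 89.98 against 8.23 for Rplp2, and Rpl31-ps12 had 28.3 against 2.66 for Rpl31. The entry of the pseudogene made up 86.3, 91.6 and 91.4% of the respective sums. For these genes the split of reads between entries is uncertain, and the level of the gene alone is not a measure of its expression.

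The start of the gene was read from RefSeq promoter windows (GRCm38.p6, 250 bases before to 50 after each annotated start), which held 75 windows for 63 of the 84 genes. A run of at least 6 C or T through the annotated start base was found in 19 of 75 windows (25.3%), against 6.65% of the windows of all genes tested and 2 of 75 windows (2.67%) of the mitochondrial ribosomal protein genes. A start at C followed by at least 4 more C or T was found in 13 windows (17.3%), against 2.43% for the genes tested. When the run could lie anywhere from 20 bases before to 30 bases after the start, 66.7% of the windows held a C followed by 5 C or T, against 34.0% of the genes tested and 33 of 75 mitochondrial windows. The motif CCGGAA, which is the core of ETS factor sites, was present on either strand in 48.0% of the windows (27.1% of the genes tested), GGGCGG in 45 of the 75 (62.7% of the genes tested), AAGATGGC in 10.7% (4.53%) and TATAAA in 9.33% (7.5%). In the 75 windows of the mitochondrial ribosomal protein genes, CCGGAA was present in 43 and AAGATGGC in 12, more than the 36 and 8 windows of the cytosolic genes, and GGGCGG in 39 and TATAAA in 5. CCGGAA can share letters with AAGATGGC and with GGGCGG, matches that overlap were each counted, and a match is a description, not a binding site. The following 30-base windows, from 10 bases before to 20 bases from the annotated start, show the 2 genes called after exercise (Rpl14 and Rps28), 4 genes with a typical tract (Rps6, Rplp2, Rpl38 and Rpl15), and the muscle paralog Rpl3l for contrast. Capitals mark the run of C and T through the start base.
Rpl14 (chr9:120571507-120571536, plus strand): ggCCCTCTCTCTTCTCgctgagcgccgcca
Rps28 (chr17:33824543-33824572, minus strand): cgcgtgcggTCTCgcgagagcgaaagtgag
Rps6 (chr4:86857348-86857377, minus strand): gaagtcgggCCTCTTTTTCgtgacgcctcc
Rplp2 (chr7:141447641-141447670, plus strand): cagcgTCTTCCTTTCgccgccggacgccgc
Rpl38 (chr11:114668570-114668599, plus strand): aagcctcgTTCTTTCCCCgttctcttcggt
Rpl15 (chr14:18270967-18270996, minus strand): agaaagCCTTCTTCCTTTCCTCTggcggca
Rpl3l (chr17:24727816-24727845, plus strand): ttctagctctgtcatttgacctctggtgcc
The run through the start is 14 bases long in Rpl14, 4 in Rps28, 10 in Rps6, Rplp2 and Rpl38, and 17 in Rpl15. Neither annotated start of Rpl3l is a C or a T.

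Between libraries, the 81 genes moved together to a large extent. Within groups, the first principal component took 44.4% of their variance in log2(FPKM + 0.5), against 18.6% for all genes tested and 43.9% for the mitochondrial ribosomal protein genes, and 69 of the 81 genes had a loading of the same sign. The largest loadings were those of Rpl22l1 (0.299), Rpl38 (0.282), Rpl39 (0.273), Rps19 (0.225) and Rpl13 (0.203). Loadings of the opposite sign were found for Rps27 (-0.123), Rpl27 (-0.0745) and Rpsa (-0.0730), the last of which is also known as the laminin receptor. The median within-group SD was 0.26 on the log2 scale, against 0.18 for all genes tested, and it fell with level from 0.44 in genes under 5 FPKM to 0.26 at 5 to 50 and 0.13 at 50 FPKM or more.

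The position of each library was summarised by the mean over the 81 genes of log2(FPKM + 0.5) minus the mean of the gene over the 16 libraries. In CON-pre these means were -0.12, -0.25, 0.08 and 0.17, and in HFD-pre they were -0.21, -0.45, -0.18 and 0.07 for replicates 1 to 4. CON-post had 0.25, 0.25, -0.10 and -0.05, and HFD-post 0.18, 0.16, 0.19 and 0.00098. HFD-pre replicate 2 was thus the lowest of all libraries, HFD-pre replicate 4 stood above the other 3 of its group, and all 4 groups overlapped. The share of all FPKM taken by the 84 genes was 0.900 ± 0.081% in CON-pre, 0.870 ± 0.065% in HFD-pre, 0.984 ± 0.074% in CON-post and 0.998 ± 0.050% in HFD-post (SD, n = 4), and it ranged from 0.798% in HFD-pre replicate 2 to 1.08% in CON-post replicate 1.

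**Figure D2:**
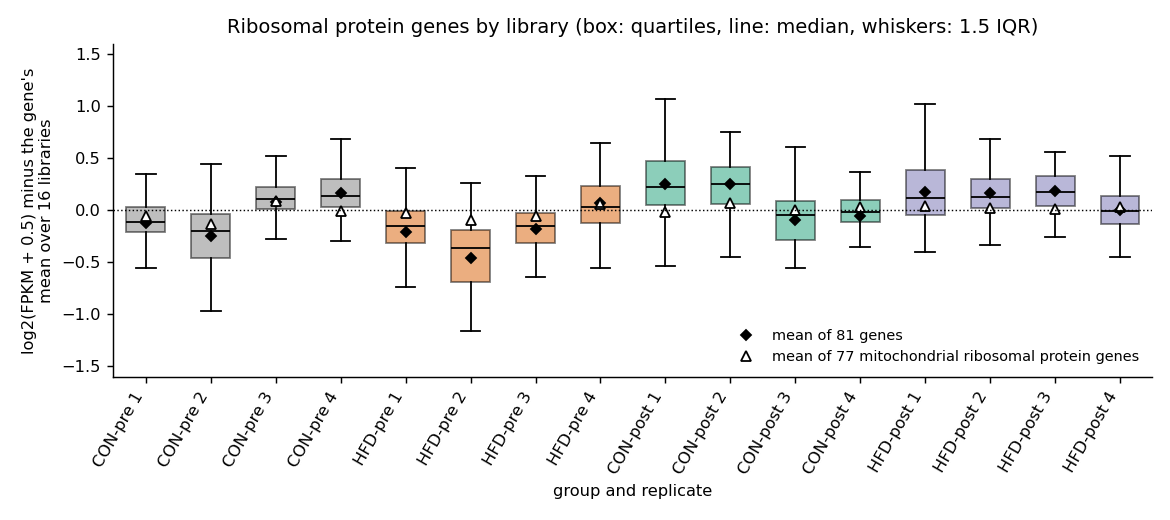
Log2(FPKM + 0.5) of 81 ribosomal protein genes minus the mean of each gene over 16 libraries, by group and replicate (boxes are quartiles, lines medians, whiskers 1.5 interquartile ranges, diamonds means of the 81 genes, triangles means of 77 mitochondrial ribosomal protein genes). HFD-pre replicate 2 has the lowest mean (-0.45) and both CON-post replicates 1 and 2 the highest (0.25).

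Summed FPKM per library ran from 283575 to 329282, and read counts are not used here. A rough depth of each library relative to CON-pre replicate 1, from the most frequent ratio among genes at 0.1 FPKM or less in both, was 0.712 to 1.13. Within each pre group the lowest ribosomal protein mean belonged to the shallowest library (CON-pre replicate 2 at 0.712 and HFD-pre replicate 2 at 0.763), and the highest to the deepest of that group (CON-pre replicate 4 at 1.11 and HFD-pre replicate 4 at 1.13), whereas HFD-post replicate 3, at 0.785, had the highest mean of its group. The part of depth in the results was not tested. All 6 myofibre markers were abundant, with summed levels of 62447 to 69179 FPKM in CON-pre, 54028 to 60195 in HFD-pre, 54425 to 63759 in CON-post and 47896 to 59041 in HFD-post. Defining markers of T and B cells summed to at most 1.38 FPKM in any library.

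In resting muscle, the high-fat diet was compared with the control diet to ask what 10 weeks of fat feeding had done to these genes. The median log2 fold change of the 81 genes (HFD-pre against CON-pre, on the log2(FPKM + 0.5) scale) was -0.14, and 70 of 81 were lower in HFD-pre, where the median of all genes tested was -0.03 and 39.6% of them were positive. No gene was called (limma, Benjamini-Hochberg adjusted p under 0.05), where the background over all genes tested was 0.346%. At an unadjusted p under 0.05, 5 genes were lower and 1 was higher, against 5.76% and 2.50% of all genes. All 16 genes at 50 FPKM or more and all 16 tested genes without a near-identical copy had a lower mean in HFD-pre, with medians of -0.13 and -0.11. Marker lists differed between the same groups, with slow-fibre markers lower in 6 of 6 (median -0.64), blood markers in 5 of 6 (-0.48), macrophage markers in 7 of 8 (-0.23) and myofibre markers in 5 of 6 (-0.20), and with granulocyte and marrow markers higher in 4 of 5 (0.60) and endothelial markers in 5 of 5 (0.12). Among the adipocyte markers, Lep, which encodes leptin, was called higher in HFD-pre (2.34, SE 0.41, limma adjusted p = 0.0138), and Cfd, which encodes adipsin, was called lower (-1.97, SE 0.27, limma adjusted p = 0.00440). The part of these markers in the result was not tested.

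Rps20, a small-subunit protein, had the smallest adjusted p in resting muscle. Its levels were 88.8, 81.7, 91.7 and 95.4 FPKM in CON-pre, and 66.8, 70.4, 74.6 and 77.6 FPKM in HFD-pre. The groups did not overlap, and the log2 fold change was -0.30 (SE 0.07, limma adjusted p = 0.124). Rpl11, which with Rpl5 binds the 5S rRNA and can inhibit Mdm2, had 5.48 to 6.15 FPKM in CON-pre and 3.91 to 4.80 FPKM in HFD-pre, also without overlap. Groups that do not overlap, with the high-fat group lower, were found in these 2 of 81 genes and in 3.94% of all genes tested, and groups with the high-fat diet higher in 0 of 81 and in 1.68%. The lowest fold changes were those of Rps27a, which is made as a fusion with ubiquitin (-0.72, SE 0.28), of Rpl36 (-0.63, SE 0.44) and of Rps28 (-0.53, SE 0.37), and the highest those of Rpl12 (0.79, SE 0.28), Rpl36a (0.19, SE 0.27) and Rps29 (0.18, SE 0.28). None of these 6 was called, with limma adjusted p of 0.409 for Rpl12 and 0.470 for Rps27a.

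In mice on the control diet, exercise was compared with rest. The median log2 fold change of CON-post against CON-pre was 0.11, which is less than the SD of 0.18 between libraries of a group in their mean over the 81 genes. The medians of HFD-pre against CON-pre (-0.14), HFD-post against CON-post (0.02), the interaction (0.17) and the averaged diet (-0.06) were also smaller in size. That SD describes single libraries and is not the error of a difference between groups. Of the 81 genes, 60 were higher, and the median of all genes tested was -0.01. The 16 genes without a near-identical copy had a median of 0.06, with 12 higher. No gene was called (limma, background 1.11%, with 0.968% higher and 0.142% lower), and at an unadjusted p under 0.05 there were 1 higher gene (Rpl6) and 1 lower gene (Rpl37a), against 6.13% and 5.0% of all genes. The 3 highest fold changes were those of Rps28 (0.79, SE 0.37), Rps16 (0.58, SE 0.27) and Rps19 (0.57, SE 0.37), all small-subunit proteins, and the 3 lowest those of Rpl37a (-0.50, SE 0.20), Rpl38 (-0.34, SE 0.48) and Rps27a (-0.30, SE 0.28). Rps28 was the only one of the 81 whose groups did not overlap, with 4.18 to 9.63 FPKM before and 9.95 to 17.8 FPKM after exercise, where 3.29% of all genes were higher and 2.53% lower without overlap. Between these groups granulocyte and marrow markers were lower in 5 of 5 (median -0.94) and myofibre markers in 5 of 6 (-0.14), endothelial markers were higher in 5 of 5 (0.10), and no marker was called. Their part in the result was not tested.

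In mice on the high-fat diet, the values before and after exercise lay further apart. The median log2 fold change of HFD-post against HFD-pre was 0.28 (a ratio of 1.22), and 73 of 81 genes were higher, where the median of all genes tested was 0.04 and 59.3% of them were positive. No gene was called (limma, background 0.542%, with 0.489% higher and 0.0533% lower), and the smallest adjusted p was 0.151, for Rpl14. At an unadjusted p under 0.05, 27 genes were higher and 0 lower, which is 33.3% of the 81, against 8.50% higher and 3.22% lower among all genes. The groups did not overlap for 8 of the 81, all of them higher after exercise, against 4.72% of all genes higher and 2.1% lower. Among these were Rps3a1 of the small subunit, Rpl6, Rpl7a, Rpl8 and Rpl41 of the large subunit, and Rplp1 and Rplp2 of the stalk.

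The stalk proteins recruit the elongation factors to the ribosome. Rplp1 had 149, 155, 142 and 158 FPKM in HFD-pre and 175, 161, 185 and 186 FPKM in HFD-post (log2 fold change 0.22, SE 0.07, limma adjusted p = 0.243). Rplp2 had 6.10 to 8.24 FPKM before and 9.27 to 11.1 FPKM after (0.53, SE 0.20), but most of the sum of gene and pseudogene lay in Rplp2-ps1, which had 0.28 (SE 0.15, limma adjusted p = 0.508). That sum was 86.4 ± 21.4 FPKM before and 104.7 ± 11.9 FPKM after (SD, n = 4), and the groups overlapped. Rplp0 had 80.5 to 98.5 and 91.9 to 104 FPKM, which overlapped. On the control diet the Rplp1 groups overlapped, with 152 to 178 FPKM in CON-pre and 149 to 182 FPKM in CON-post.

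The largest fold changes in HFD-post against HFD-pre belonged to genes of low or middle level. Rps28 had 3.54, 3.90, 2.60 and 10.9 FPKM in HFD-pre and 15.4, 13.5, 16.6 and 6.20 FPKM in HFD-post (log2 fold change 1.33, SE 0.37, limma adjusted p = 0.155). Replicate 4 was high in the first group and low in the second, and the groups overlapped through it. Rpl36 (1.00, SE 0.44) and Rps27a (0.83, SE 0.28) followed. The lowest fold changes were those of Rpl29 (-0.10, SE 0.09), Rpl31 (-0.06, SE 0.15) and Rpl35a (-0.06, SE 0.16). Without HFD-pre replicate 4, the only library whose omission gave any call here, 3 genes were called (0.471% of all genes in that fit) and the median was 0.35, and without HFD-pre replicate 2 the median was 0.21 and no gene was called.

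By subunit, 29 of 31 small-subunit genes were higher in HFD-post than in HFD-pre (median 0.30), as were 37 of 42 large-subunit genes (median 0.29), 3 of 3 stalk genes (0.22) and 4 of 5 divergent paralogs (0.22). By level, the median was 0.38 under 5 FPKM, 0.37 at 5 to 50 and 0.17 at 50 FPKM or more, where 15 of 16 were higher. Of the 16 tested genes without a near-identical copy, 15 were higher, with a median of 0.21. Other marker lists moved between the same groups, with granulocyte and marrow markers lower in 5 of 5 (median -0.67, summed levels 1.45 to 94.8 FPKM in HFD-pre and 1.07 to 162 in HFD-post), slow-fibre markers higher in 6 of 6 (0.26, 162 to 463 and 161 to 670 FPKM), myofibre markers lower in 6 of 6 (-0.07), blood markers higher in 5 of 6 (0.46, 259 to 482 and 316 to 903 FPKM) and adipocyte markers higher in 5 of 5 (0.48, 57.9 to 68.9 and 50.9 to 148 FPKM). None of the markers in these lists was called. Of the 5 endothelial markers, 2 were higher and 3 lower, and Pecam1 among them was called and rose (0.39, SE 0.08, limma adjusted p = 0.0347). The part of these markers in the result was not tested.

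**Figure D3:**
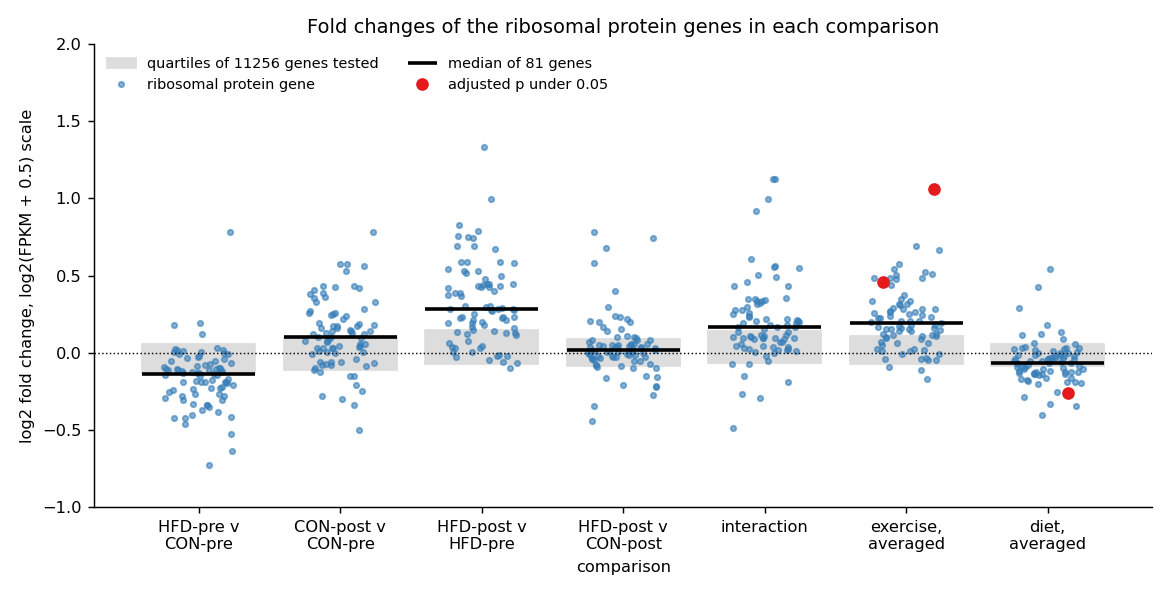
Log2 fold change of each of 81 ribosomal protein genes (points) in 7 comparisons, with the median of the 81 (bar) and the quartiles of all 11256 genes tested (grey). The median is 0.28 in HFD-post against HFD-pre and -0.14 in HFD-pre against CON-pre; red points are Rps28, Rpl14 and Rps20, the genes with an adjusted p under 0.05.

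After exercise the diets lay close together. The median log2 fold change of HFD-post against CON-post was 0.02, 48 of 81 genes were higher, and the median of all genes was 0.004. Of the 16 genes without a near-identical copy, 6 were higher (median -0.03). Slow-fibre markers were lower in 6 of 6 (median -0.37) and myofibre markers in 6 of 6 (-0.11), Lep was called higher (2.74, SE 0.41, limma adjusted p = 0.00893) and Cfd lower (-1.58, SE 0.27, limma adjusted p = 0.0253), and the part of these markers was not tested. No gene was called (limma, background 0.151%, with 0.124% higher and 0.0267% lower), and at an unadjusted p under 0.05 there were 2 higher genes (Rpl37a and Rps29) and 1 lower (Rps20), against 3.12% and 3.17% of all genes. The highest fold changes were those of Rpl30 (0.79, SE 0.86), Rpl38 (0.74, SE 0.48) and Rps29 (0.68, SE 0.28). With 1 library left out, Rpl30, which is close to 0 in CON-post replicate 3, ran from 0.11 to 1.33. Rpl38 ran from 0.31 to 1.04 and Rps29 from 0.34 to 0.97. The lowest fold changes were those of Rps16 (-0.44, SE 0.27), Rpl22l1 (-0.35, SE 0.49) and Rpl9 (-0.27, SE 0.37). Groups that did not overlap were found for Rps20 and Rps9, both lower in HFD-post, where 1.28% of all genes were lower and 1.88% higher. For Rps9, the 4 HFD-post libraries lay between 176 and 179 FPKM and the 4 CON-post libraries between 179 and 233 FPKM, so that the gap was small.

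Whether exercise acted differently on the 2 diets was asked by the interaction, the fold change on the high-fat diet minus that on the control diet. It was positive for 72 of 81 genes (median 0.17), against 60.3% of all genes tested (median 0.04), and for 15 of the 16 genes without a near-identical copy (median 0.11). It was also positive for slow-fibre markers in 6 of 6 (median 0.23), adipocyte markers in 5 of 5 (0.44), blood markers in 5 of 6 (0.69) and myofibre markers in 5 of 6 (0.07), whose part in the result was not tested. No ribosomal protein gene was called and no gene of the whole table was (limma, background 0.0%), and at an unadjusted p under 0.05 there were 4 positive genes (Rpl18, Rpl37a, Rpl7a and Rps27a) and 0 negative, against 2.11% and 1.05%. The highest values were those of Rpl38 (1.13, SE 0.68), Rps27a (1.13, SE 0.40) and Rpl30 (0.99, SE 1.21). With 1 library left out, Rpl30, which has libraries close to 0, ran from 0.31 to 1.75. Rpl38 ran from 0.63 to 1.43 and Rps27a from 0.91 to 1.46. The lowest values were those of Rpl12 (-0.49, SE 0.39), Rpl9 (-0.29, SE 0.52) and Rpl36a (-0.27, SE 0.38). For a typical gene the 95% interval of the interaction reached 0.49 to either side, so that a difference between the diets of the size of the median was not detectable for single genes. A difference in response between the diets is therefore not shown.

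Averaged over both diets, exercise was compared in all 16 libraries. The median log2 fold change was 0.20 (a ratio of 1.14), 71 of 81 genes were higher, and the median of all genes tested was 0.01, with 53.7% positive. Of the 81, 2 were called and both rose, Rps28 and Rpl14, against a background of 2.95% of all genes called higher (0.915% lower, 3.86% in either direction), so that the share called (2.47%) was near the background. At an unadjusted p under 0.05, 31 were higher and 0 lower, against 11.7% and 6.80% of all genes. The counts in the subgroups were 27 of 31 higher for the small subunit (median 0.24), 37 of 42 for the large subunit (0.20), 3 of 3 for the stalk (0.12) and 4 of 5 for the paralogs (0.06). Of the 16 tested genes without a near-identical copy, 14 were higher, with a median of 0.11. In the same comparison granulocyte and marrow markers were lower in 5 of 5 (median -0.74) and myofibre markers in 5 of 6 (-0.10), and adipocyte markers were higher in 5 of 5 (0.29) and slow-fibre markers in 6 of 6 (0.14). Of all the markers Pecam1 alone was called (0.36, SE 0.06, limma adjusted p = 0.00141), and the part of the markers in the result was not tested.

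Rps28, a small protein of the small subunit, had 5.69, 4.18, 9.63 and 8.69 FPKM in CON-pre, and 17.8, 11.3, 10.1 and 9.95 FPKM in CON-post. Together with the HFD values above, its log2 fold change was 1.06 (SE 0.26, limma adjusted p = 0.0335). Rps28 has a genomic copy at 100% identity, which leaves its own level uncertain. Rpl14, a large-subunit protein, had 20.4, 18.9, 19.9 and 28.4 FPKM in CON-pre and 29.3, 31.7, 24.6 and 24.4 FPKM in CON-post. In HFD-pre it had 18.6, 12.7, 17.2 and 22.5 FPKM, and in HFD-post 29.0, 28.6, 28.1 and 20.8 FPKM, so that the groups of each diet overlapped through replicate 4. Its log2 fold change was 0.46 (SE 0.12, limma adjusted p = 0.0350). When the FPKM of Rpl14-ps1 were added to Rpl14, an alternative chosen after seeing the data, the log2 fold change was 0.14 and the call was lost (limma adjusted p = 0.178). Rpl14-ps1 alone had a log2 fold change of 0.09 (limma adjusted p = 0.420), whereas Rpl31-ps12 rose by itself (0.39, SE 0.08, limma adjusted p = 0.00957) and Rpl31 had 0.01 (SE 0.10). With 1 library left out, the call was kept in 7 of 16 fits for Rps28 and in 5 of 16 for Rpl14, with limma adjusted p of at most 0.0765 and 0.0778. Under the 13 other settings it was kept in 11 for Rps28 and in 9 for Rpl14. The count of called genes was 0 when CON-pre replicate 1 or 2, HFD-pre replicate 1, 2 or 3, CON-post replicate 1, or HFD-post replicate 1, 2 or 3 was omitted, and rose to 6 without CON-pre replicate 4 and 10 without HFD-pre replicate 4, fits in which 5.03% and 4.3% of all genes were called in either direction.

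**Figure D4:**
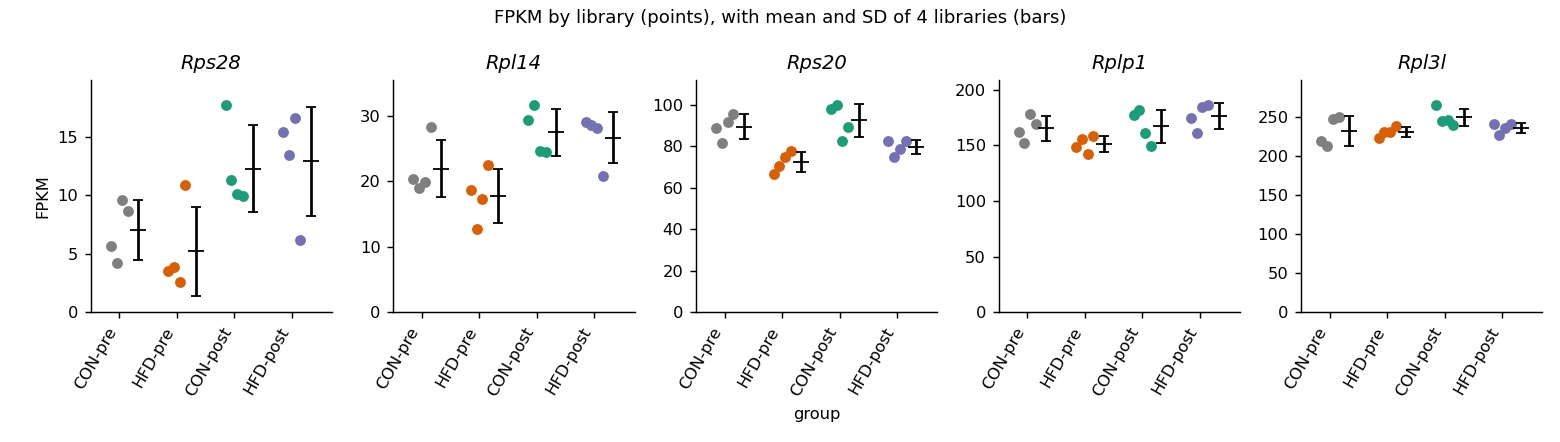
FPKM of Rps28, Rpl14, Rps20, Rplp1 and Rpl3l in each of 16 libraries (points, coloured by group), with the mean and SD of 4 libraries (bars to the right); the vertical axes start at 0. Rps28 runs from 2.60 to 17.8 FPKM, Rps20 is lower in both HFD groups, and Rpl3l stays between 213 and 266 FPKM.

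The other members of known role were as follows in the averaged comparison, and none of them was called. Rps6, the substrate of the S6 kinases and the protein whose phosphorylation is used as a readout of mTORC1, had a log2 fold change of 0.35 (SE 0.14, limma adjusted p = 0.203), with 13.8 to 23.5 FPKM in CON-pre and 15.4 to 25.8 FPKM in CON-post. Rpl5 had 0.23 (SE 0.07) and Rpl11 had 0.16 (SE 0.16). The stalk proteins Rplp0, Rplp1 and Rplp2 had 0.12 (SE 0.06), 0.12 (SE 0.05) and 0.45 (SE 0.14). Rps19, the gene most often mutated in Diamond-Blackfan anaemia, had 0.66 (SE 0.26) and Rps2 had 0.48 (SE 0.22). After Rps28, the highest values were those of Rpl36 (0.69, SE 0.31) and Rps19. The lowest were those of Rpl35a (-0.17, SE 0.11), Rpl27 (-0.11, SE 0.12) and Rpl29 (-0.09, SE 0.06), and Rpsa had -0.03 (SE 0.09).

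Averaged over both exercise states, the diet was compared in all 16 libraries. The median log2 fold change of HFD against CON was -0.06, 21 of 81 genes were higher, and the median of all genes was -0.02, with 43.4% positive. Rps20 was the 1 gene called, and it fell, against a background of 0.471% of all genes called lower (0.959% in either direction). In the same comparison slow-fibre markers were lower in 6 of 6 (median -0.50), macrophage markers in 8 of 8 (-0.21) and myofibre markers in 5 of 6 (-0.15), Lep was called higher (2.54, SE 0.29, limma adjusted p = 0.000243) and Cfd lower (-1.77, SE 0.19, limma adjusted p = 0.000175), and the part of these markers in the result was not tested. Rps20 has a genomic copy at 99.7% identity, which leaves its own level uncertain. The levels of Rps20 after exercise were 97.9, 99.9, 82.5 and 89.1 FPKM in CON-post and 82.5, 74.9, 78.5 and 82.4 FPKM in HFD-post. The log2 fold change was -0.26 (SE 0.05, limma adjusted p = 0.0210, a ratio of 0.837), and each HFD group lay below its CON group without overlap, although the lowest CON-post and the highest HFD-post library were nearly equal. The call was kept in 10 of 16 fits with 1 library left out (adjusted p at most 0.0565), and lost when replicate 1 or 3 of CON-pre, replicate 1 or 2 of HFD-pre, or replicate 2 of either post group was omitted. It was lost in 5 of 13 other settings, namely upper-quartile and median-of-ratios scaling, no mean-variance trend, the replicate block, and without HFD-pre replicates 2 and 4. At an unadjusted p under 0.05, 2 genes were higher (Rpl12 and Rps29) and 3 lower (Rps20, Rpl29 and Rps24), against 3.89% and 6.54% of all genes. The highest fold changes were those of Rpl12 (0.54, SE 0.20), Rps29 (0.43, SE 0.20) and Rpl30 (0.29, SE 0.61), and the lowest those of Rpl22l1 (-0.40, SE 0.34), Rps16 (-0.35, SE 0.19) and Rpl36 (-0.33, SE 0.31).

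**Figure D5:**
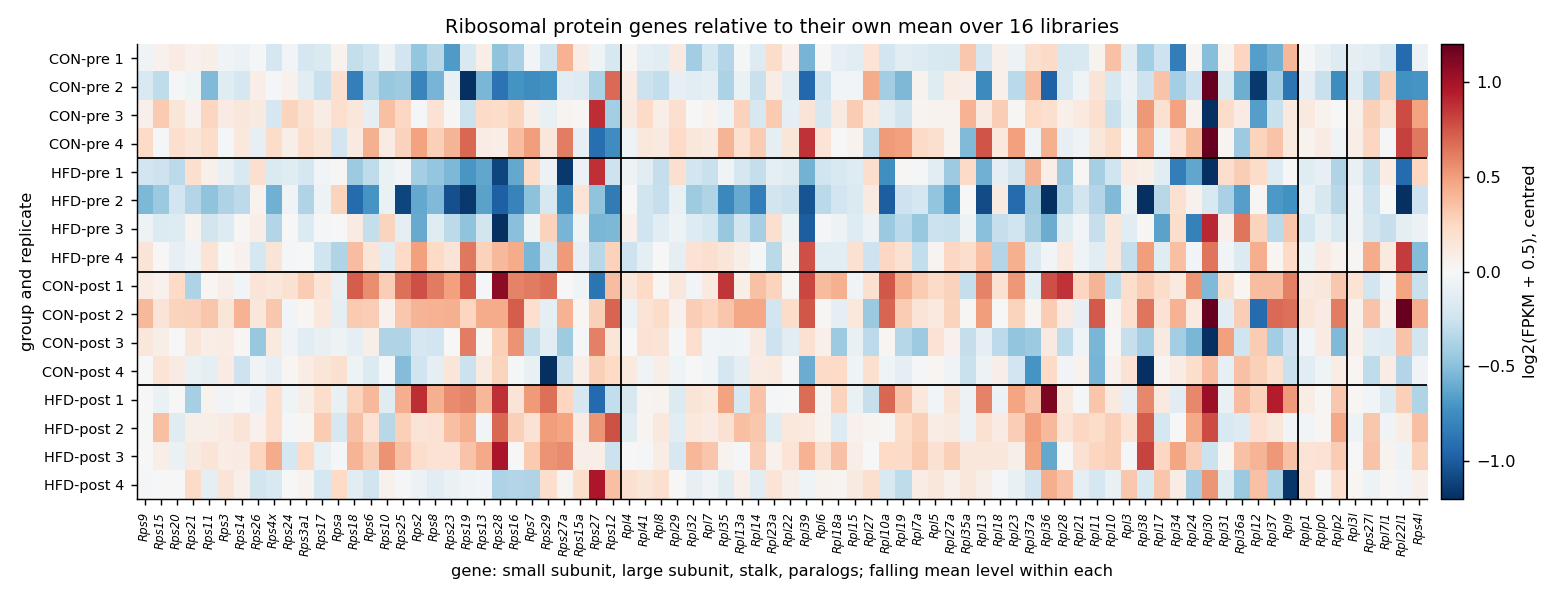
Log2(FPKM + 0.5) of 80 of the 81 ribosomal protein genes tested (columns, by subunit and falling mean level) in 16 libraries (rows), each centred on the mean of the gene; red is higher and blue lower, and the colours are capped at 1.2. HFD-pre replicate 2 is blue in most columns, and genes of low level at the right of each block vary most.

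Paralogs with a parent in the same muscle held a steady order of level. Rpl3l exceeded Rpl3 in all 16 libraries, with log2 ratios of 5.11 to 5.75 and a ratio of means of 46.5. The group means of this log2 ratio were 5.46 ± 0.10 in CON-pre, 5.47 ± 0.20 in HFD-pre, 5.41 ± 0.23 in CON-post and 5.32 ± 0.20 in HFD-post (SD, n = 4), so that the groups overlapped. Rpl3 had a mean of 5.10 FPKM, and it has a copy at 98% identity or more, which leaves its own level uncertain. Rps27l exceeded Rps27 by a ratio of means of 44.0, with the same reservation for Rps27. Rpl22l1 was below Rpl22 in every library (log2 ratios of -3.20 to -0.77, ratio of means 0.320). The closest copy of Rpl22l1 is at 99.5% identity and that of Rpl22 at 95.8%, which leaves the level of Rpl22l1 uncertain. The values of Rpl22l1 ran from 1.39 FPKM in HFD-pre replicate 2 to 13.7 FPKM in CON-post replicate 2, one of the widest ranges among the members. In the averaged exercise comparison, Rpl3l had a log2 fold change of 0.07 (SE 0.04), Rpl3 0.17 (SE 0.09), Rps27l 0.06 (SE 0.13), Rps27 0.24 (SE 0.32), Rpl22 0.11 (SE 0.06) and Rpl22l1 0.49 (SE 0.34), none of them called. The remaining pairs had 0.06 (SE 0.19) for Rps4l and 0.29 (SE 0.11) for Rps4x, -0.05 (SE 0.08) for Rpl7l1 and 0.21 (SE 0.08) for Rpl7, 0.57 (SE 0.30) for Rpl39 and 0.10 (SE 0.12) for Rpl10.

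Other genes of the pathway were followed from lists, and the counts below are for the averaged exercise comparison, where 53.7% of all genes tested were positive, 2.95% were called higher, and 11.7% were higher and 6.8% lower at an unadjusted p under 0.05. Of the 4 further ribosomal protein genes tested, Gnb2l1 among them, all had positive values, with a median of 0.18. Gnb2l1, the scaffold protein Rack1 of the small subunit, rose from 146 ± 6.78 FPKM in CON-pre and 137 ± 3.75 in HFD-pre to 163 ± 8.20 in CON-post and 156 ± 9.71 in HFD-post (SD, n = 4; log2 fold change 0.17, SE 0.04, limma adjusted p = 0.0307). Of 21 elongation factors and other genes known for TOP tracts, 17 were higher (median 0.06) and 0 were called, with 6 higher and 1 lower at an unadjusted p under 0.05. Of 63 ribosome biogenesis genes, 51 were higher (median 0.07) and 0 were called, with 10 higher and 0 lower at an unadjusted p under 0.05. The 77 mitochondrial ribosomal protein genes had 47 higher, a median of 0.02 and 0 called, with 11 higher and 2 lower at an unadjusted p under 0.05.

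Of 23 regulators of ribosome production and mTORC1 signalling, 15 were higher, and 3 were called, all of which rose, against 2.95% of all genes called higher and 53.7% positive. Eif4ebp1, which encodes the translation repressor 4E-BP1, had 15.8 to 22.7 FPKM in HFD-pre and 32.0 to 41.4 FPKM in HFD-post, and 19.5 to 34.9 and 30.9 to 45.1 FPKM in CON-pre and CON-post. Its log2 fold change was 0.75 (SE 0.11, limma adjusted p = 0.000870). Myc, a transcription factor that drives ribosome biogenesis, had 0.80 (SE 0.16, limma adjusted p = 0.00927), from 1.58 ± 0.42 FPKM in CON-pre and 1.61 ± 0.78 in HFD-pre to 3.5 ± 0.40 in CON-post and 2.66 ± 0.67 in HFD-post (SD, n = 4). Sesn1, a sestrin that restrains mTORC1, had 0.40 (SE 0.10, limma adjusted p = 0.0399).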

How the data were processed

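Quadriceps RNA of 16 male mice (4 groups of 4) was measured by stranded mRNA sequencing. The authors aligned the reads with TopHat to mm9 and estimated FPKM with Cufflinks, versions not given in the sources used here, and deposited one FPKM table. FPKM holds no read counts, so that no interval from counting is given, and near-identical genes, overlapping genes and pseudogenes may share reads. The p-values measure the spread between separate mice.

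Of 24487 entries, 27 with date-like names were left out (0.0771% of FPKM) and 260 repeated symbols (0 of them ribosomal protein genes) were summed. The 11256 genes averaging 0.5 FPKM or more were tested on log2(FPKM + 0.5) with limma 3.58.1 (R 4.3.3, mean-variance trend, 1 fit of 4 groups, two-sided, Benjamini-Hochberg over all genes). A gene is called at an adjusted p under 0.05, and the added 0.5 shrinks fold changes of low genes. The fit was tested on simulated data. Relative depth was estimated against CON-pre replicate 1 from genes at 0.1 FPKM or less. Copies were searched with BLAST 2.17.0 on mm9 with annotated complete coding sequences, taking for each gene the one with most copies.

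The members, lists and comparisons were chosen with earlier results of these data known. Genes named are those called, the 3 highest and 3 lowest fold changes per comparison, the 5 highest and 5 lowest levels, members of known role, paralog pairs, and Rps19, Rps2 and Rpl14, which the study lists, and some genes that this rule names are not reported here. Genes at an unadjusted p under 0.05 or without overlap are named beside small counts, after their values were seen. Alternatives were pseudocounts, filters, scalings, thresholds, a replicate block, fits without the trend, with only the groups compared or without repeated symbols, and leaving out each library. Omitting HFD-pre replicates 2 and 4 together, keeping only genes without a near-identical copy and adding pseudogene entries were chosen after seeing the data. Figures used Python 3.11.15 with matplotlib 3.10.9.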

Additional observations from a re-analysis of the deposited data

Results flagged for a closer look

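A library was singled out when, among the 4 libraries of a group, its gap to the nearest other exceeded 0.829 of the range of the group (Dixon's 95% limit). Chance alone singles out about 1 group in 20, and 19 of 324 combinations of gene and group (5.86%) were singled out over the 81 genes, so that the number is near what chance gives. Of the 19, 7 were HFD-pre replicate 4, and no other library had more than 2.

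HFD-pre replicate 4 was the highest library of its group for Rps28 at 10.9 FPKM (the others 2.60 to 3.90), for Rps2 at 20.1 FPKM (9.09 to 10.5), for Rpl39 at 31.2 FPKM (8.54 to 12), for Rps16 at 6.16 FPKM (2.31 to 2.95) and for Rps27l at 74.0 FPKM (44.2 to 46.3). In the same group, replicate 1 was highest for Rpl29 at 61.9 FPKM (49.7 to 51.7) and for Rps27 at 2.43 FPKM (0.586 to 0.764). In CON-pre, replicate 4 was highest for Rpl14 at 28.4 FPKM (18.9 to 20.4).

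After exercise, CON-post replicate 1 was highest for Rps28 at 17.8 FPKM (9.95 to 11.3) and lowest for Rpl10 at 4.10 FPKM (5.21 to 5.38). CON-post replicate 2 was lowest for Rpl12 at 0.828 FPKM (2.58 to 2.76) and highest for Rpl35a at 11.0 FPKM (8.78 to 8.96), and CON-post replicate 3 was lowest for Rpl3 at 4.08 FPKM (5.77 to 5.95). HFD-post replicate 3 was highest for Rplp0 at 104 FPKM (91.9 to 93.7). HFD-post replicate 4 was lowest for Rpl14 at 20.8 FPKM (28.1 to 29.0), and its mean over the 81 genes, 0.00098 on the centred log2 scale, lay below those of the other 3 libraries of the group (0.16 to 0.19).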

How the results depend on the processing

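The FPKM hold no read counts, and depth was estimated only roughly, relative to CON-pre replicate 1. Of 83 genes, 65 have a near-identical genomic copy, so that levels of these genes are uncertain. Of 842 fold changes of named genes under the alternatives that keep every library or drop a pair, 827 kept direction and side of the threshold, 11 lost the call, 1 gained it and 3 turned. With 1 library left out, of 1040 these were 996, 26, 6 and 12. Most of these were never called, and staying uncalled counts as kept. The calls of Rps28, Rpl14 and Rps20 were kept in 7, 5 and 10 of 16 fits with 1 library left out. Under the 13 other settings they were kept in 11, 9 and 8. No cause was tested for any change below.

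For exercise averaged over both diets, 2 genes were called. The count was 0 without a filter on low values (1.72% of all genes called) and 7 at an adjusted p under 0.1 (6.92%). It was 4 at a mean of 5 FPKM or more (6.66%) or with median-of-ratios scaling (4.34%), against 3.86% of all genes in the reported fit. For the averaged diet, 1 gene was called (0.959% of all genes). The count was 0 under upper-quartile (1.13%) or median-of-ratios scaling (1.14%), without the mean-variance trend (0.8%), or without HFD-pre replicates 2 and 4 together (0.453%). Rps28, Rpl14 and Rps20 all have a copy at 98% or more. Keeping only members without such a copy, with no new fit, therefore gave a count of 0 that was fixed in advance and says nothing about these calls. With a replicate block, 1 gene was called for exercise (2.91% of all genes) and 0 for the diet (0.773%) or any other comparison. Same-numbered mice were not treated as pairs, since their correlations ran from -0.220 to 0.213, 5 of 24 same-numbered pairs were over 0.1, and in 6 of the 24 comparisons of a library with another group its own number correlated best.

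With 1 library left out, called genes ranged from 0 to 10 for averaged exercise, 0 to 1 for averaged diet, 0 to 3 for HFD-post against HFD-pre and 0 to 1 for CON-post against CON-pre (1 without CON-pre replicate 4, where 1.66% of all genes were called). Median fold changes moved by less than the SD between libraries of a group (0.178). With 1 library left out they ran from -0.21 to -0.06 for HFD-pre against CON-pre, 0.03 to 0.15 for CON-post against CON-pre, 0.21 to 0.35 for HFD-post against HFD-pre, -0.04 to 0.07 for HFD-post against CON-post, 0.08 to 0.22 for the interaction, 0.15 to 0.23 for averaged exercise and -0.10 to -0.03 for averaged diet.

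Fold changes that turned with 1 library left out were those of Rpl36a (HFD-pre against CON-pre, -0.0105 to 0.42), Rpl38 (CON-post against CON-pre, -0.64 to 0.10), Rpl31 (HFD-post against HFD-pre, -0.18 to 0.0195), Rpl9 (HFD-post against CON-post, -0.47 to 0.0896, and interaction, -0.52 to 0.0695), Rpl30 (averaged diet, -0.0876 to 0.63) and, for averaged exercise, Rpsa (-0.0876 to 0.0166), Rps27l (-0.0057 to 0.15) and Rps4l (-0.0711 to 0.15). Rpl31 had 0.44 in HFD-post against HFD-pre with pseudogene entries added. For averaged exercise, Rpl3l had -0.0155 with quantile scaling, and Rps4l -0.0581 without HFD-pre replicates 2 and 4 together.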
